A study of Mus musculus with 5 samples.

Results

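The comparison described here is Lactobacillus gasseri LG21 given alone against its vehicle, the LG21+GA array minus the GA+GA array, taken as the difference of log2 expression values for each gene. It used 2 of the 5 arrays of the study, 1 array a side, and 19938 genes, of which 278 belonged to 5 families of genes (38 mast cell, 79 interferon, 51 sterol, 47 antigen presentation and 63 brush border genes). All groups were male ddY mice, an outbred stock, aged 5 weeks. GA+GA mice received gum arabic, the vehicle, in both of a pair of oral administrations 0.5 hours apart, and LG21+GA mice received L. gasseri OLL2716 (LG21, a probiotic strain) and gum arabic. The other arrays were GA+Asp (gum arabic and aspirin), Tep+Asp (the mucosal protective drug teprenone and aspirin) and LG21+Asp (LG21 and aspirin). Gut was collected 4 hours after the final administration, so every group was seen at 1 early time only. Neither the LG21 dose nor any pooling of mice behind an array is stated in these sources.

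With 1 array per group there were no replicates, no test was possible, and each difference below is a difference between 2 arrays whose spread between animals is unknown. Values are RMA levels on the log2 scale, on which a difference of 0.2 is 1.15-fold, and levels of different genes are not set against each other. Array medians ran from 6.94 to 6.98. Over all probe sets the 2 arrays correlated at r = 0.997, 96.5% of genes were under 0.2 apart and 31.4% had exactly the same value. As a mark of background, the 95th percentile of 1027 olfactory receptor genes stood at 6.30 in GA+GA and 6.33 in LG21+GA, and a fold is given only where both values lay above it. Low Xist (4.88 to 4.91) and clear Uty (9.03 to 9.08) on the 5 arrays matched the label male. The label names the tissue as whole gut. Gastric markers were near the top of the scale, with Muc5ac at 13.32, Gkn1 at 13.28, Tff1 at 13.33, Atp4a at 13.45 and Pgc at 13.55 in GA+GA. Of the intestinal markers, Cdx2 stood at 6.41, Muc2 at 6.59 and Sis at 4.74, close to or below the background mark, while Vil1 (8.20) and Lgr5 (8.86) were above it. Of 12 genes of intestinal goblet, Paneth and stem cells, 9 lay above the mark on both arrays. Among them Spink4 stood at 9.16 and Clca1 at 8.66 in GA+GA. The intestinal markers were thus mixed, and an intestinal identity of the tissue was not borne out by Cdx2, Muc2 and Sis.

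Lactobacilli are Gram-positive bacteria of the stomach and intestine. Mucosal mast cells sit in the epithelium and lamina propria and store proteases in granules. Interferons act through JAK kinases and STAT and IRF factors on a set of antimicrobial genes, among them GTPases that attack the membranes around pathogens, and interferon gamma also raises the genes of antigen presentation. Sterol synthesis is governed by SREBP2, which is released from the membrane when cholesterol is low. The brush border is the apical face of enterocytes and carries phosphatases, sugar-splitting enzymes, peptidases and transporters.

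Few genes stood far apart. Among the 9969 genes above the filter (a mean over the 5 arrays above 7.41), 100 were at least 0.2 higher in LG21+GA (1%) and 141 at least 0.2 lower (1.41%). At least 2-fold apart were 1 higher and 2 lower gene (0.0301%). The highest differences were those of Akp3, an intestinal alkaline phosphatase (1.37), Gbp4, an interferon-induced GTPase (0.80), Ctnnbip1, an inhibitor of beta-catenin (0.68), D17H6S56E-5 (0.65), and Cel, the bile salt-dependent lipase (0.54). They were followed by the chemokine Cxcl9 (0.50), the linker histone H1f1 (0.43), the sugar phosphate carrier Slc37a1 (0.43), Igsf23 (0.42) and the succinate dehydrogenase subunit Sdhd (0.40). Of the 10 furthest below 0, Bhmt (-1.22), Cyp2f2 (-1.02), Fgg (-0.98), Serpina1c (-0.92), Hpx (-0.86), Cps1 (-0.86) and Rbp4 (-0.83) were on the hepatocyte list. The others were the plasma protease inhibitor Mug1 (-0.96), the amino acid transporter Slc38a4 (-0.78) and Atp6v0d2, a subunit of the vacuolar proton pump (-0.77). Atp6v0d2 stood at 8.69 in GA+GA, 7.92 in LG21+GA, 8.77 in GA+Asp, 8.88 in Tep+Asp and 9.11 in LG21+Asp. LG21+GA was the low array for this gene.

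**Figure D1:**
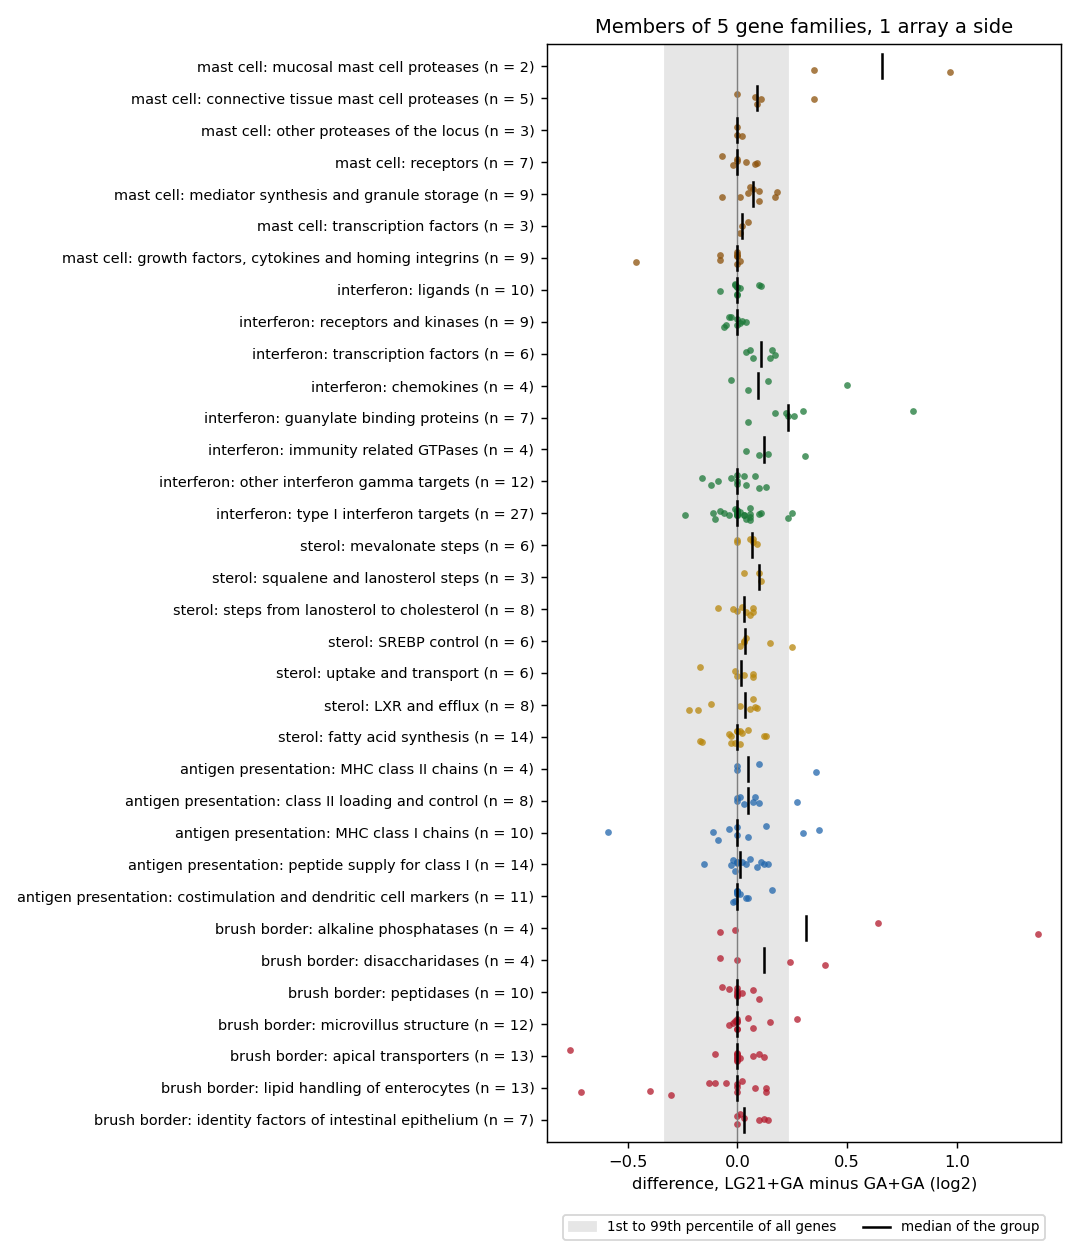
Difference between LG21+GA and GA+GA (log2, horizontal axis) of each measured member of 5 gene families, by role; each point is 1 gene, the black bar is the median of the group and the grey band spans the 1st to 99th percentile of all genes (-0.33 to 0.23). The guanylate binding proteins (7 of 7 above 0), mucosal mast cell proteases (2 of 2) and interferon transcription factors (6 of 6) lie to the right of 0, also after quantile normalization and cyclic loess, while most other groups straddle it.

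The mast cell family was higher by a small margin in LG21+GA, led by granule proteases. Of its 38 measured members 23 lay above 0 and 6 below, against 38.8% and 29.8% of all genes. After cyclic loess 22 lay above and 16 below, against 37.2% and 62.8% of all genes. These shares are the ones to set beside every later count after cyclic loess. The median was 0.02, against 0.00 over all genes. At least 0.2 higher were 3 members (1.36% of all genes) and at least 0.2 lower 1 (2.16% of all genes). LG21+GA held the strictly highest value of the 5 arrays in 12 members (31.6%), against 13.7% of all genes. Members of all 5 families were chosen with earlier results of these data known, so an excess over all genes is not independent of that choice. In RNA from whole tissue, more cells of a type and more RNA per cell cannot be told apart.

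Mcpt1 and Mcpt2, chymase-like proteases of mucosal mast cells, were among the members furthest above 0. Mcpt1 stood at 7.48 in GA+GA, 8.45 in LG21+GA, 6.77 in GA+Asp, 7.24 in Tep+Asp and 6.40 in LG21+Asp. The difference of 0.97 is 1.97-fold, and LG21+GA was the highest array and LG21+Asp the lowest. Mcpt2 stood at 8.91 in GA+GA, 9.26 in LG21+GA, 8.46 in GA+Asp, 8.39 in Tep+Asp and 7.94 in LG21+Asp. Its difference was 0.35, with the same arrays at the top and the bottom. Both genes lie in 1 cluster with Mcpt4 and Cma1 and resemble each other, so that their probe sets may share signal. The stretch upstream of Mcpt1 is shown because GATA factors act in mast cells. It is from RefSeq (GRCm38.p6, chr14:56017714-56017963, plus strand, the 250 bases before the start site), and capitals mark GATAA, searched on both strands.
Mcpt1: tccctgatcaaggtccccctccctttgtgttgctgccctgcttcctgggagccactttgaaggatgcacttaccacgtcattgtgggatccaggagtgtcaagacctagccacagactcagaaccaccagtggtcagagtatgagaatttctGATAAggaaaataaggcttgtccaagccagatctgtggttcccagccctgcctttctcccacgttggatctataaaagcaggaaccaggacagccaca
GATAA was found upstream of 5 of the 7 mast cell protease genes with an entry (71.4%) and of 23% of all 27025 promoters. Such a match of letters is a description of the sequence.

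Among proteases of connective tissue mast cells, 4 of 5 lay above 0 and 0 below with a median of 0.09, and 4 above and 1 below after quantile normalization or cyclic loess. The tryptase Tpsab1 stood at 7.25 in GA+GA, 7.60 in LG21+GA, 7.41 in GA+Asp, 7.41 in Tep+Asp and 7.28 in LG21+Asp, a difference of 0.35. Carboxypeptidase A3, encoded by Cpa3 and shared by both mast cell types, stood at 8.73, 8.84, 8.63, 8.80 and 8.33 in the same order, a difference of 0.11. Both genes were highest in LG21+GA. Tpsb2 differed by 0.09, Cma1 by 0.08 and Mcpt4 by 0.00. The basophil protease Mcpt8 had 5.21 on both arrays.

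Genes of mediator synthesis and storage differed by less, with 8 of 9 members above 0 and a median of 0.07. Hdc, the histamine-forming enzyme, differed by 0.18, Alox5ap, which serves leukotriene synthesis, by 0.17, and Ltc4s, leukotriene C4 synthase, by 0.10. Hdc was lowest in GA+GA at 9.51, and it stood at 9.69 in LG21+GA, 9.74 in GA+Asp, 9.78 in Tep+Asp and 9.71 in LG21+Asp. GA+GA thus stood apart for this gene, and enterochromaffin-like cells of the stomach also express it. The receptors gave 3 above and 2 below 0 of 7, and 3 above and 4 below after cyclic loess. Kit, the receptor of stem cell factor, differed by 0.08. Fcer1a, a chain of the IgE receptor, had 5.35 and 5.39, and Ms4a2, another chain of it, 5.22 and 5.31, all under the background mark. Gata1, Gata2 and Mitf, factors of the lineage, differed by 0.02, 0.05 and 0.01.

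The ligands of mast cells did not share this direction. Of 9 growth factors, cytokines and homing integrins 2 lay above 0 and 3 below, and Kitl, stem cell factor itself, differed by -0.08. Il33, an epithelial alarmin that activates mast cells, stood at 10.42 in GA+GA, 9.97 in LG21+GA, 10.56 in GA+Asp, 10.66 in Tep+Asp and 10.49 in LG21+Asp. The difference was -0.46, and LG21+GA was the low array. Il9, Il3, Il4 and Il13 differed by -0.08, 0.00, 0.00 and 0.00, and all but Il13 lay under the background mark on both arrays. Other blood cell lists gave 10 of 16 T and NK cell genes above 0 (median 0.01), 5 of 8 eosinophil genes (median 0.04) and 5 of 13 macrophage genes (median 0.00). Of the T and NK cell and eosinophil genes 0 lay above the filter. Their part in the mast cell values was not tested.

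**Figure D2:**
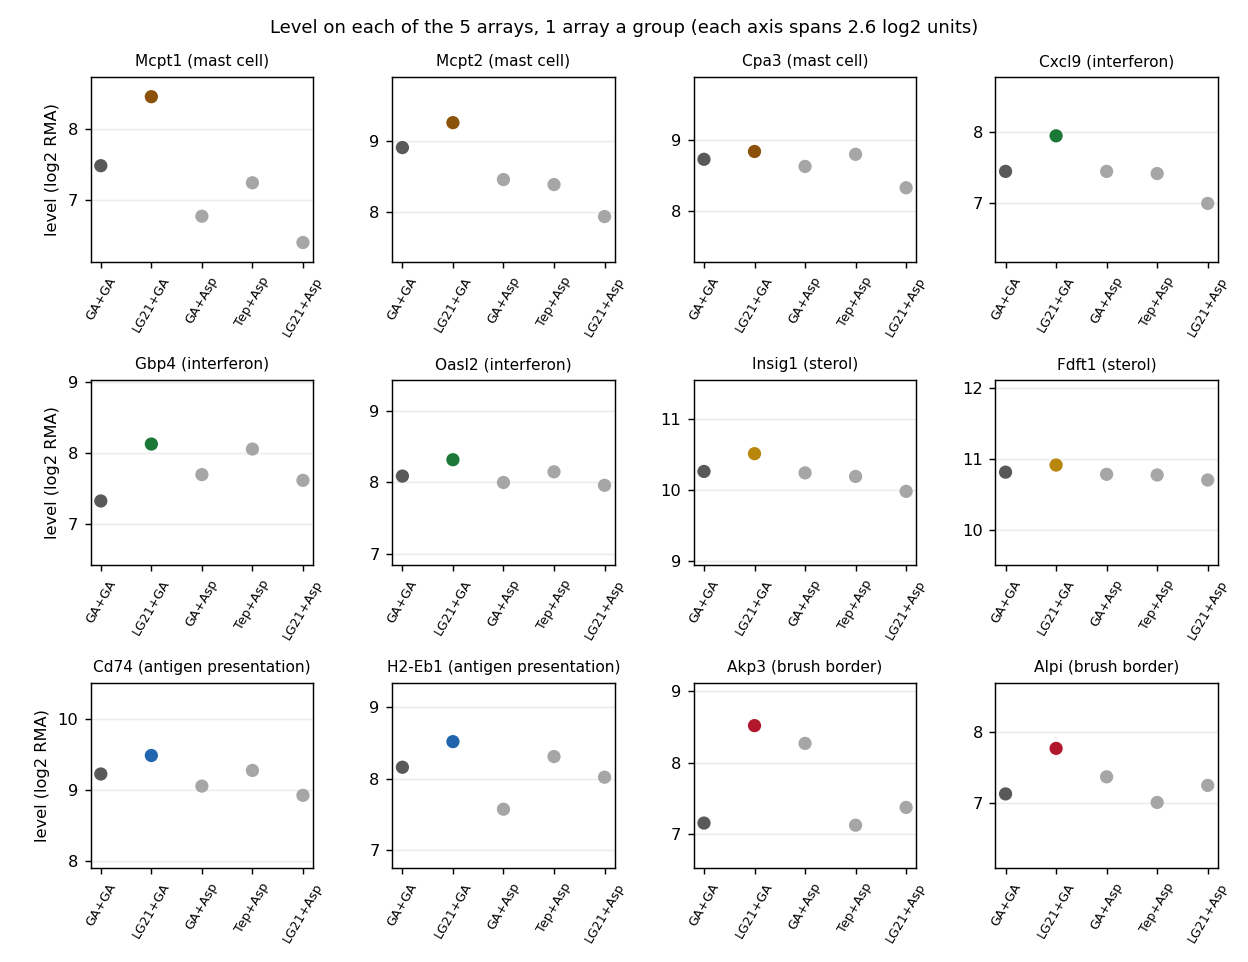
Level on each of the 5 arrays (log2 RMA, vertical axis, every panel spanning the same range) of 12 family members, 1 array a group; the coloured point is LG21+GA, the dark point GA+GA and the pale points the 3 arrays with aspirin. LG21+GA is the highest array in each panel, with Mcpt1 at 8.45 against 7.48 in GA+GA, and Akp3 at 8.52 against 7.15. That was so for only 23.8% to 42.6% of the members of each family, so the panels do not represent the families.

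Interferon genes were higher in LG21+GA mainly at the level of GTPases and transcription factors, not of ligands or receptors. Of 79 members 45 lay above 0 and 20 below, against 38.8% and 29.8% of all genes, with a median of 0.02 (44 above and 35 below after cyclic loess). At least 0.2 higher were 9 members (1.36% of all genes) and at least 0.2 lower 1 (2.16% of all genes). At 0.1 the counts were 20 higher (25.3%) and 5 lower, against 7.45% and 6.67% of all genes. The strictly highest array was LG21+GA in 30 members (38%), against 13.7% of all genes.

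Of the interferon genes themselves, Ifng, interferon gamma, had 5.97 on both arrays and Ifnb1 5.34 on both, under the background mark. Ifnl2, an interferon lambda of epithelia, stood at 8.01 in GA+GA and 8.11 in LG21+GA, its highest array. Of 10 ligands and inducing cytokines 3 lay above 0 and 3 below, or 3 and 7 after cyclic loess. Il18, which induces interferon gamma, differed by 0.11. Receptors and kinases gave 3 above and 5 below of 9, between -0.06 and 0.04, with Ifngr1 at -0.03, Ifnar1 at 0.04 and Jak1 at -0.04.

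All 6 measured transcription factors of the pathway lay above 0, with a median of 0.11, also after quantile normalization and cyclic loess. Of these 5 were highest in LG21+GA, against 13.7% of all genes. Stat2, a subunit of the factor ISGF3, stood at 8.12 in GA+GA, 8.29 in LG21+GA, 8.15 in GA+Asp, 8.15 in Tep+Asp and 8.07 in LG21+Asp. Its DNA-binding partner Irf9 stood at 7.89, 8.05, 7.96, 7.99 and 7.94 in the same order. Both were highest in LG21+GA, by 0.17 and 0.16 over the control. Irf7, an amplifier of type I interferon, differed by 0.15, Irf8 by 0.07, Batf2 by 0.06 and Irf1 by 0.04.

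The interferon-induced GTPases formed the most uniform group of the family. All 7 guanylate binding proteins and all 4 immunity-related GTPases lay above 0 under each scaling tried, with a median of 0.22 for the 11 as deposited. At least 0.2 higher were 6 of them (1.36% of all genes). The highest array was LG21+GA in 7 of the 11 (13.7% of all genes) and Tep+Asp in the other 4 (14.3% of all genes). GA+GA was lowest in 4 (20.6% of all genes) and GA+Asp in 5 (18% of all genes). Gbp4 stood at 7.33 in GA+GA, 8.13 in LG21+GA, 7.70 in GA+Asp, 8.06 in Tep+Asp and 7.62 in LG21+Asp. It differed by 0.80 (1.74-fold), with LG21+GA and Tep+Asp high and GA+GA low. Against the mean of the 4 other arrays the difference was 0.46. Gbp7 stood at 7.67 in GA+GA, 7.90 in LG21+GA, 7.67 in GA+Asp, 8.15 in Tep+Asp and 7.67 in LG21+Asp. Gbp9 stood at 7.06, 7.27, 7.20, 7.52 and 7.16 in the same order. For Gbp7 and Gbp9, Tep+Asp was higher than LG21+GA. Gbp8 (0.30), Gbp5 (0.26) and Gbp11 (0.17) lay under the background mark on both arrays, and Gbp3 differed by 0.05. Iigp1, an immunity-related GTPase, stood at 6.94 in GA+GA, 7.25 in LG21+GA, 6.34 in GA+Asp, 7.04 in Tep+Asp and 6.37 in LG21+Asp. Its 2 highest arrays were those of Gbp4, but its value in GA+GA, the lowest array for Gbp4, lay close to that in Tep+Asp. Iigp1 was low in GA+Asp and LG21+Asp. Gbp4, Gbp8, Gbp9 and Gbp11 lie in 1 cluster, and Gbp3, Gbp5 and Gbp7 in another, with near-identical stretches, so that these 7 are not independent measurements.

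Upstream stretches of Gbp5 and Gbp7 are shown because members of this group differed in 1 direction. They are the 250 bases before the RefSeq start site in GRCm38.p6, Gbp5 at chr3:142496684-142496933 and Gbp7 at chr3:142530086-142530335, both on the plus strand. Capitals mark GAAANNGAAA, the core of the interferon-stimulated response element, and TTCNNNGAA, the gamma-activated site bound by STAT dimers, both searched on either strand and not overlapping here.
Gbp5: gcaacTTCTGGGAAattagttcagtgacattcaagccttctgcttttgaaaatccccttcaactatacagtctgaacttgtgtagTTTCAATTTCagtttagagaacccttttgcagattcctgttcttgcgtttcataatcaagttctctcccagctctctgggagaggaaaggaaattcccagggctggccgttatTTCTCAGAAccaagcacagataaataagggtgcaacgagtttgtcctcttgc
Gbp7: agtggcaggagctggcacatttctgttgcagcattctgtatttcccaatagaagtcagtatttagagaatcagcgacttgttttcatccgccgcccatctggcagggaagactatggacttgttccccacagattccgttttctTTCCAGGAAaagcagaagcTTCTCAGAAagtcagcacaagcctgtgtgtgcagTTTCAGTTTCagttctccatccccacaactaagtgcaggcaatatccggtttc
GAAANNGAAA was found upstream of all 5 GTPase genes with an entry (Gbp3, Gbp5, Gbp7, Irgm1 and Gm12250) and of 3.04% of all promoters. TTCNNNGAA was found in 3 of the 5 and in 7.18% of all. Over the 39 interferon targets and factors with an entry, 16 held GAAANNGAAA (41.0%) and 11 held TTCNNNGAA (28.2%).

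The interferon-induced chemokines were not uniform. Cxcl9, a ligand of CXCR3 on activated T cells, stood at 7.45 in GA+GA, 7.95 in LG21+GA, 7.45 in GA+Asp, 7.42 in Tep+Asp and 7.0 in LG21+Asp. Its difference was 0.50 (1.42-fold), and LG21+GA stood above the 4 other arrays. Its neighbours and fellow CXCR3 ligands Cxcl10 and Cxcl11 differed by -0.03 and 0.05, and Ccl5 by 0.14.

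Targets of type I interferon were split, with 13 of 27 above 0 and 7 below, and 12 above and 15 below after cyclic loess. The oligoadenylate synthetase-like genes Oasl1 and Oasl2 were the highest. Oasl1 stood at 10.41 in GA+GA, 10.66 in LG21+GA, 10.41 in GA+Asp, 10.40 in Tep+Asp and 10.35 in LG21+Asp. Oasl2 stood at 8.09, 8.32, 8.0, 8.15 and 7.96 in the same order. Both neighbours were high in LG21+GA, by 0.25 and 0.23 over the control. Ifit2 lay at 6.35 and 6.11, a difference of -0.24 with 1 value under the background mark. Ifit1 differed by 0.00, Ifit3 by 0.01, Mx1 by -0.06, Rsad2 by 0.10, Usp18 by 0.00 and Ifitm3 by -0.11. The other targets of interferon gamma gave 6 above and 4 below of 12, or 6 and 6 after cyclic loess, with Zbp1, a nucleic acid sensor, at 0.13 and Parp14 at -0.12.

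More sterol genes lay above 0 than below, by small amounts and in most steps of cholesterol synthesis. Of 51 members 34 lay above 0 and 14 below, against 38.8% and 29.8% of all genes. The median was 0.03, and after cyclic loess 32 lay above and 19 below. The family is well expressed, with 43 members above the filter, of which 31 lay above 0 and 10 below, against 46.4% and 32.3% of all genes above the filter. Sizes were small, with 1 member at least 0.2 higher (1.36% of all genes) and 1 at least 0.2 lower (2.16% of all genes). At 0.1 there were 6 each way (11.8%), against 7.45% of all genes higher and 6.67% lower. In the enzymes of cholesterol synthesis 14 of 17 lay above 0 and 2 below, with a median of 0.06 (12 and 5 after cyclic loess). LG21+GA was the highest array in 9 of them (52.9%), against 13.7% of all genes and 15.5% of genes above the filter.

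The mevalonate steps ran from 0.00 to 0.09. Hmgcs1, which makes HMG-CoA, stood at 10.80 in GA+GA, 10.87 in LG21+GA, 10.83 in GA+Asp, 10.75 in Tep+Asp and 10.74 in LG21+Asp. Mevalonate kinase, Mvk, stood at 8.59, 8.67, 8.59, 8.58 and 8.53 in the same order. Both were highest in LG21+GA, by 0.07 and 0.09 over the control. Idi1, isopentenyl diphosphate isomerase, differed by 0.00. Squalene synthase, Fdft1, differed by 0.10, squalene epoxidase, Sqle, by 0.03, and lanosterol synthase, Lss, by 0.11. Later steps gave 5 above and 2 below of 8, with Nsdhl and Hsd17b7 at 0.07 and Sc5d at -0.09.

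The regulators of the pathway all lay above 0, 6 of 6 with a median of 0.03, also after quantile normalization and cyclic loess. Against the mean of the 4 other arrays 4 lay above and 2 below, with a median of 0.01. GA+GA was the lowest array in 3 of the 6, against 20.6% of all genes. Insig1, which holds SREBP in the endoplasmic reticulum and is itself an SREBP target, stood at 10.26 in GA+GA, 10.51 in LG21+GA, 10.24 in GA+Asp, 10.19 in Tep+Asp and 9.98 in LG21+Asp. Srebf2, which encodes SREBP2, stood at 10.35, 10.50, 10.37, 10.35 and 10.34 in the same order. Insig1 and Srebf2 were high in LG21+GA, by 0.25 and 0.15 over the control, and the 4 other arrays of Srebf2 lay close together. Srebf1 and Mbtps1 differed by 0.03, Scap by 0.04 and Insig2 by 0.01.

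The upstream stretches of Hmgcs1 and Insig1 are shown as those of an enzyme and a regulator of the group. They are from RefSeq (GRCm38.p6, plus strand, 250 bases before the start site), Hmgcs1 at chr13:119690101-119690350 and Insig1 at chr5:28071162-28071411. Capitals mark TCACNCCAC, a sterol regulatory element, and CCAAT, bound by NF-Y, a common partner of SREBP, both searched on either strand (ATTGG is the reverse of CCAAT).
Hmgcs1: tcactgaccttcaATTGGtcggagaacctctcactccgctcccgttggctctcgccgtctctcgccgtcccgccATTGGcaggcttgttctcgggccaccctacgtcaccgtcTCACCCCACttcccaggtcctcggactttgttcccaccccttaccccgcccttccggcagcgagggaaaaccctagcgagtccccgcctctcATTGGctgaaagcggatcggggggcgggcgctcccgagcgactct
Insig1: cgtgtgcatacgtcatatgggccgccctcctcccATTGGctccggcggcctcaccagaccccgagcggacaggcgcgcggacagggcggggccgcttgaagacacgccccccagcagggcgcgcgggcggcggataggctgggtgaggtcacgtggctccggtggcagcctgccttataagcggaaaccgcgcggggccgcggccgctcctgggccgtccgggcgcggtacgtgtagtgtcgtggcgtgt
CCAAT was found upstream of 13 of the 14 cholesterol synthesis genes with an entry (92.9%) and of 34.5% of all promoters. TCACNCCAC was found in 1 of the 14, Hmgcs1, and in 1.04% of all promoters.

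Fatty acid synthesis did not share the direction, with 6 of 14 above 0 and 7 below. Fasn, fatty acid synthase, differed by 0.05, the desaturases Scd1 by -0.16, Scd2 by 0.13, Fads1 by 0.12 and Fads2 by -0.17. In efflux, Abca1 differed by 0.09 and Abcg1 by 0.08, while Nr1h3, which encodes LXR alpha, differed by -0.18. Apoe stood at 11.72 in GA+GA, 11.50 in LG21+GA, 11.22 in GA+Asp, 11.46 in Tep+Asp and 11.38 in LG21+Asp. GA+GA was the highest array of Apoe, and against the mean of the 4 other arrays the difference turned from -0.22 to 0.06. Hepatocytes also express Apoe.

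More antigen presentation genes lay above 0 than below as deposited, but not after cyclic loess, and LG21+GA was the highest array for many of them. Of 47 members 24 lay above 0 (51.1%) and 11 below, against 38.8% and 29.8% of all genes, with a median of 0.00. Cyclic loess turned this to 23 above (48.9%) and 24 below, where 37.2% of all genes lay above and 62.8% below. At 0.1 there were 10 higher (21.3%) and 3 lower, against 7.45% and 6.67% of all genes. After cyclic loess 9 were higher and 2 lower at 0.1. The strictly highest array was LG21+GA in 20 members (42.6%), against 13.7% of all genes, the largest share of the 5 families.

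In the class II pathway 9 of 12 members lay above 0 and 0 below, with a median of 0.05 (8 and 4 after cyclic loess). At least 0.1 higher were 3 class II pathway genes, 3 class I chains and 3 genes of peptide supply. H2-Eb1, a class II beta chain, stood at 8.16 in GA+GA, 8.52 in LG21+GA, 7.57 in GA+Asp, 8.31 in Tep+Asp and 8.02 in LG21+Asp. Cd74, the invariant chain that guards the peptide groove, stood at 9.22, 9.48, 9.05, 9.27 and 8.92 in the same order. Both genes were highest in LG21+GA, by 0.36 and 0.27 over the control. H2-Ab1 differed by 0.10 and H2-Aa, the alpha chain that pairs with it, by 0.00. Ifi30, a thiol reductase of the lysosome, differed by 0.08 and Ciita, the master regulator of class II genes, by 0.07. B cells also carry class II chains and Cd74, and B and plasma cell genes gave 6 above 0 and 0 below of 11 with a median of 0.01, or 6 and 5 after cyclic loess. Cd79a (4.71 in GA+GA and 5.05 in LG21+GA), Ms4a1 (5.18 and 5.29) and Jchain (5.33 and 5.44) were highest in LG21+GA, all under the background mark. Their part in the class II values was not tested. Markers of dendritic cells and costimulation gave 4 above and 2 below of 11, or 4 and 7 after cyclic loess, with 0 above the filter.

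The stretch upstream of H2-Eb1, the class II chain that differed most, is shown with CCAAT in capitals on either strand, the box bound by NF-Y in class II promoters. It is from RefSeq (GRCm38.p6, chr17:34305617-34305866, plus strand).
H2-Eb1: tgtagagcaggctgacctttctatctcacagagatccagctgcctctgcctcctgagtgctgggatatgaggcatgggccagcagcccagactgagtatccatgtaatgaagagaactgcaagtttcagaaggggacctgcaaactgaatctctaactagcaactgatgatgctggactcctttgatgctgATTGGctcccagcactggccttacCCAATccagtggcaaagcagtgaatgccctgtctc
CCAAT was found upstream of 6 of the 9 class II pathway genes with an entry (66.7%), against 34.5% of all promoters.

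Class I chains had no common direction, with 4 above and 4 below 0 of 10. B2m, the shared light chain, differed by -0.11. H2-Q4 stood at 7.81 in GA+GA, 8.11 in LG21+GA, 7.75 in GA+Asp, 7.85 in Tep+Asp and 7.70 in LG21+Asp. Cd1d1, which presents lipids to NKT cells, stood at 6.50, 6.87, 6.46, 6.46 and 6.35 in the same order. Both class I genes were high in LG21+GA, by 0.30 and 0.37 over the control. H2-T10 stood at 6.65 in GA+GA, 6.06 in LG21+GA, 6.43 in GA+Asp, 6.53 in Tep+Asp and 6.43 in LG21+Asp. Its difference was -0.59 with LG21+GA as the low array, where the value lay under the background mark. H2-K1 is not analysed here. In peptide supply 7 of 14 lay above 0 and 5 below (7 and 7 after cyclic loess). LG21+GA was highest in 7 of the 14, against 13.7% of all genes. Tap1, of the peptide transporter, differed by 0.14, the proteasome activator Psme2 by 0.12, the immunoproteasome subunits Psmb9 by 0.11 and Psmb8 by 0.04, and the chaperone Pdia3 by -0.15.

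The major histocompatibility region was also checked beyond the list, since ddY mice are outbred and the region varies between mice. In RefSeq order, 155 measured genes lie from H2-K1 to H2-M2. Of these 7 were at least 0.2 higher and 6 at least 0.2 lower, 13 in all (8.39%), against 3.53% of all genes. Among the 137 that were not on the antigen presentation list the share was 7.30%, with 10 genes. They included D17H6S56E-5 (8.63 in GA+GA and 9.28 in LG21+GA) and Vars, a tRNA synthetase (9.24 and 9.57), as well as Ppt2 (0.22) and Ier3 (0.28), all highest in LG21+GA. The complement genes C4b (-0.22) and Cfb (-0.29) and the apolipoprotein gene Apom (-0.21) were highest in GA+GA and lowest in GA+Asp, as were 26 hepatocyte genes. H2-M10.1, H2-M10.5 and Olfr108 lay under the background mark. The part of allele differences between animals in the values of H2-Eb1, H2-Q4 and H2-T10 was not tested.

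**Figure D3:**
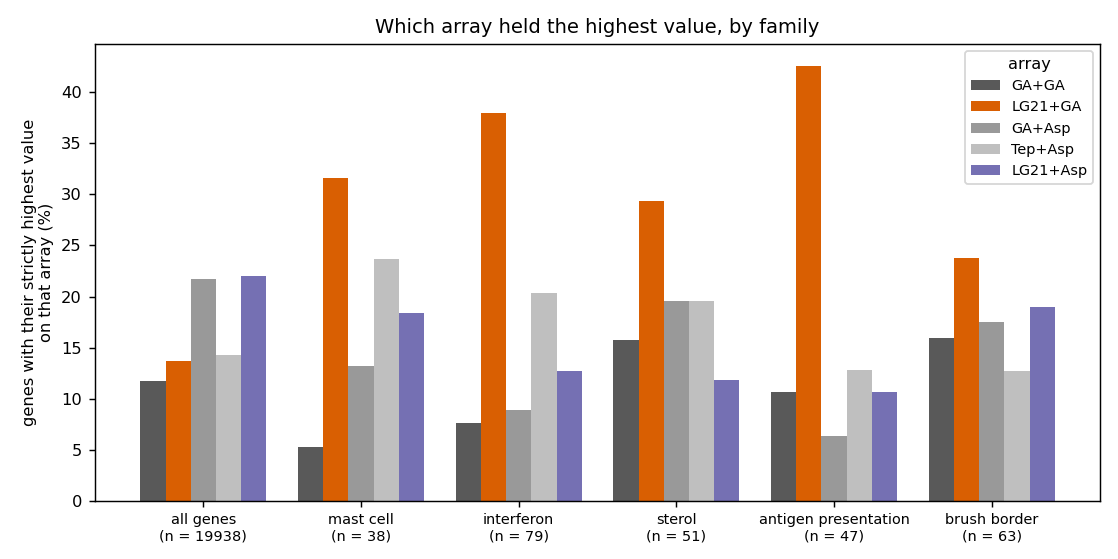
Share of genes (%, vertical axis, from 0) whose strictly highest value of the 5 arrays was on each array, for all genes and for the 5 families; bars are arrays, and ties are counted for none. LG21+GA holds the highest value for 42.6% of antigen presentation, 38% of interferon, 31.6% of mast cell, 29.4% of sterol and 23.8% of brush border members, against 13.7% of all genes. The lists were chosen with earlier results of these data known, so the excess over all genes is not independent of that choice.

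Brush border genes held the largest single difference but no common direction. Of 63 members 26 lay above 0 (41.3%) and 17 below, close to the 38.8% and 29.8% of all genes, with a median of 0.00, 10 and 11 of those above the filter, and 25 and 38 after cyclic loess. At least 0.2 higher were 5 members, against 1.36% of all genes, and at least 0.2 lower 4, against 2.16%. Akp3 stood at 7.15 in GA+GA, 8.52 in LG21+GA, 8.27 in GA+Asp, 7.12 in Tep+Asp and 7.37 in LG21+Asp. The difference of 1.37 is 2.59-fold, and LG21+GA and GA+Asp were high while the other 3 arrays lay close together. Alpi, the adjacent intestinal phosphatase gene, stood at 7.13, 7.77, 7.37, 7.01 and 7.25 in the same order, a difference of 0.64 (1.56-fold). The 5 arrays ranked in the same order for both genes, which are near-identical in places, so that their signals may not be separate. Alpl, the tissue-nonspecific form, differed by -0.08.

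The sugar-splitting enzymes Mgam and Sis were near or under background. Mgam, maltase-glucoamylase, stood at 6.02 in GA+GA, 6.42 in LG21+GA, 6.31 in GA+Asp, 5.49 in Tep+Asp and 5.78 in LG21+Asp. LG21+GA and then GA+Asp were highest and Tep+Asp was lowest, as for Akp3. Sis, sucrase-isomaltase, stood at 4.74, 4.97, 4.81, 4.65 and 4.74 in the same order of groups, all under the background mark. Cdhr2, a protocadherin that links microvilli, stood at 6.70 in GA+GA, 6.98 in LG21+GA, 6.80 in GA+Asp, 6.79 in Tep+Asp and 6.58 in LG21+Asp, a difference of 0.27. Vil1, the microvillus protein villin, differed by -0.02, Myo1a, the brush border myosin, by 0.15 and the lactase gene Lct by -0.08. Peptidases gave 3 above and 2 below of 10 (3 and 7 after cyclic loess), between -0.07 and 0.10. The aminopeptidase Anpep was well above background at 11.73 in GA+GA and 11.81 in LG21+GA, and Ace, which trims peptides, at 9.36 and 9.38. The identity factors gave 6 of 7 above 0 and 0 below, with a median of 0.03 (5 and 2 after cyclic loess), with Cdx2 at 0.01, Hnf4a at 0.10 and Gata4 at 0.12.

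Slc9a3, the apical sodium-proton exchanger NHE3, was the member furthest below 0. It stood at 7.75 in GA+GA, 6.99 in LG21+GA, 7.75 in GA+Asp, 7.89 in Tep+Asp and 7.89 in LG21+Asp. The difference was -0.76 (1.69-fold), LG21+GA was the low array and the 4 others lay close together. Genes of lipid handling gave 4 above and 7 below of 13, and 8 above and 5 below against the mean of the 4 other arrays. Apoc3 (-0.71), Apob (-0.40) and Fabp1 (-0.30) were the 3 at least 0.2 lower, and hepatocytes express them too. Apoc3 stood at 9.76 in GA+GA, 9.04 in LG21+GA, 7.02 in GA+Asp, 7.65 in Tep+Asp and 8.37 in LG21+Asp, with GA+GA high and GA+Asp low. Fabp2, the fatty acid-binding protein more typical of intestine, differed by -0.13 and Apoa4 by 0.00. Without lipid handling the family gave 22 above and 10 below of 50 members.

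Marker lists of neighbouring cells were read beside the brush border. Goblet, Paneth and stem cell genes of the intestine gave 5 above and 4 below of 12, or 5 and 7 after cyclic loess. Spink4, a peptide of goblet cells, stood at 9.16 in GA+GA, 9.55 in LG21+GA, 9.50 in GA+Asp, 9.15 in Tep+Asp and 9.33 in LG21+Asp. Zg16, a lectin of goblet cells, stood at 6.54, 6.89, 6.76, 6.18 and 6.24 in the same order. For both genes LG21+GA and then GA+Asp were highest and Tep+Asp was lowest, as for Akp3 and Mgam. Among genes chosen after their values were seen, Itln1, an intestinal lectin (0.66, under the background mark), S100g, an intestinal calcium-binding protein (0.52), and Prap1 (0.35) were also highest in LG21+GA and lowest in Tep+Asp. The gastric epithelium list gave 6 above and 9 below of 18, and 11 above and 7 below after cyclic loess, with differences from -0.09 to 0.09. The part of unequal amounts of intestine on the arrays in the values of Akp3, Alpi and Mgam was not tested.

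**Figure D4:**
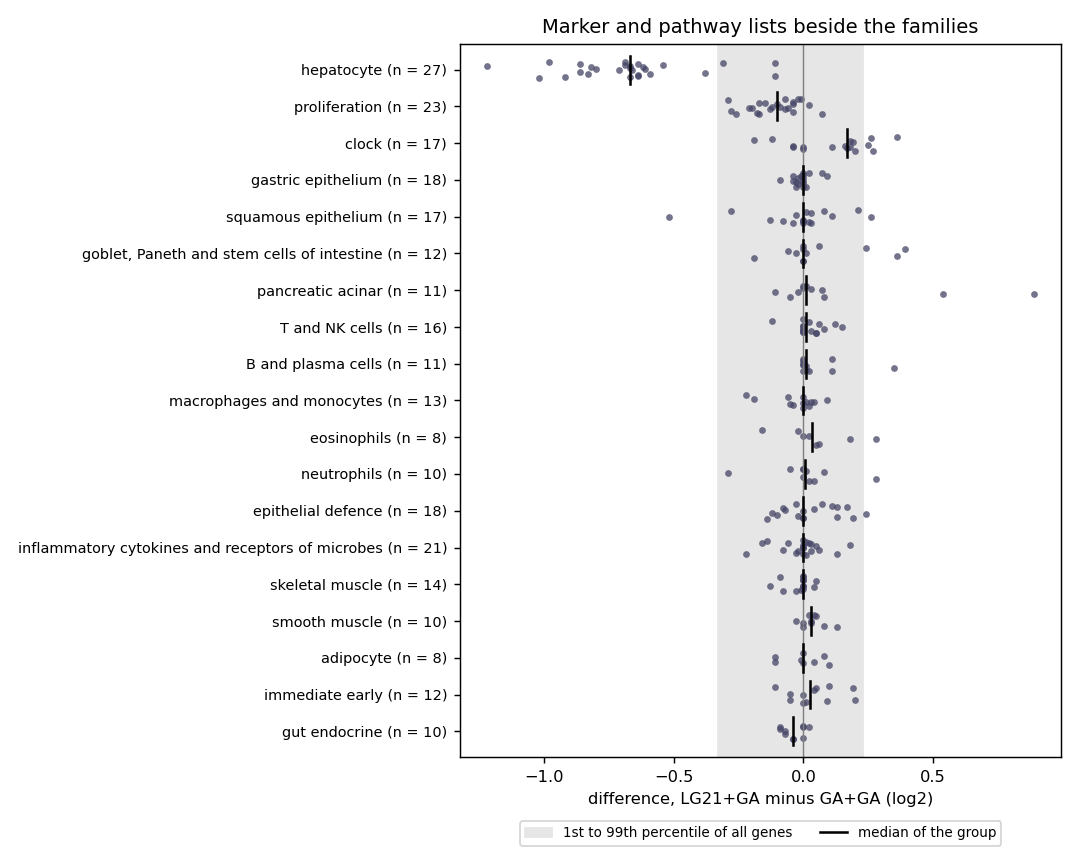
Difference between LG21+GA and GA+GA (log2, horizontal axis) of each measured gene of 19 marker and pathway lists read beside the families; each point is 1 gene, the black bar is the median and the grey band spans the 1st to 99th percentile of all genes. Against GA+GA the hepatocyte list lies wholly below 0 (median -0.67), though against the mean of the 4 other arrays its median is 0.99; proliferation genes lie mostly below 0 and clock genes mostly above.

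The largest shift of any list lay outside the 5 families. All 27 hepatocyte genes were lower in LG21+GA, from -1.22 to -0.11 with a median of -0.67. GA+GA was the highest array for each of them, against 11.7% of all genes. Against the mean of the 4 other arrays the median was 0.99, with all 27 above 0. GA+Asp was the lowest array in 26, against 18% of all genes. The median level of the list was lowest in GA+Asp (6.30) and highest in GA+GA (9.39), with 8.62 in LG21+GA. Alb, serum albumin, stood at 12.69 in GA+GA, 12.37 in LG21+GA, 7.43 in GA+Asp, 10.41 in Tep+Asp and 11.80 in LG21+Asp. The arrays thus differed in their level of liver genes. The part of this in the values of Apoc3, Apob, Fabp1 and Apoe was not tested.

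GA+GA was also the highest or the lowest array for most genes of 2 other lists. Of 23 proliferation genes 21 lay below 0, with a median of -0.10, and GA+GA was the highest array in 20, against 11.7% of all genes. Against the mean of the 4 other arrays 11 lay above and 12 below. Top2a differed by -0.29, Ccna2 by -0.28, Pcna by -0.26 and Mki67 by -0.17. Of 17 clock genes 11 lay above 0, with a median of 0.17, and GA+GA was the lowest array in 11, against 20.6% of all genes. Ciart (0.36), Nr1d2 (0.27), Per2 (0.26) and Per3 (0.25) led. Against the mean of the 4 other arrays 7 clock genes lay above and 10 below. In the families, GA+GA was the lowest array at shares near or below the 20.6% of all genes. The counts were 9 of 38 mast cell, 12 of 79 interferon, 12 of 51 sterol, 4 of 47 antigen presentation and 7 of 63 brush border members.

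The arrays with aspirin offer another pair that differs by LG21 and shares no array with the first, LG21+Asp minus GA+Asp. Over all genes 38.6% lay above 0 and 38.1% below in that pair, and over the genes above the filter 23.7% and 58.2%. Of the mast cell family 14 lay above 0 and 20 below, with Mcpt1 at -0.37, Mcpt2 at -0.53 and Cpa3 at -0.30. For these 3 genes LG21+GA was the highest array and LG21+Asp the lowest. Of the interferon family 29 lay above 0 and 37 below. Cxcl9 differed by -0.45, Gbp4 by -0.09, Iigp1 by 0.03 and Oasl2 by -0.04. The 11 GTPases gave 6 above and 4 below with a median of 0.02, and the 6 transcription factors 0 above and 5 below with a median of -0.02.

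In the sterol family 22 lay above 0 and 24 below in the pair with aspirin. The 17 enzymes of cholesterol synthesis gave 3 above and 12 below, with a median of -0.06. Of these enzymes 16 were above the filter, and of all genes above it 23.7% lay above 0 and 58.2% below. LG21+Asp was the lowest array in 9 of the 17, against 15.9% of all genes and 24.3% of genes above the filter. Insig1 differed by -0.27 and Srebf2 by -0.03. Antigen presentation gave 22 above and 16 below, with H2-Eb1 at 0.45 and Cd74 at -0.13, and the 12 genes of the class II pathway gave 6 above and 5 below. H2-Eb1 was higher with LG21 in both pairs. Brush border genes gave 28 above and 25 below, 1 at least 0.2 higher (4.24% of all genes) and 6 at least 0.2 lower (2.34% of all genes), with Akp3 at -0.90, Mgam at -0.53, Alpi at -0.12 and Slc9a3 at 0.14. Hepatocyte genes had a median of 1.38, opposite in sign to the first pair. Whether the difference with LG21 depends on aspirin was not tested, since each of the 4 groups had 1 array.

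**Figure D5:**
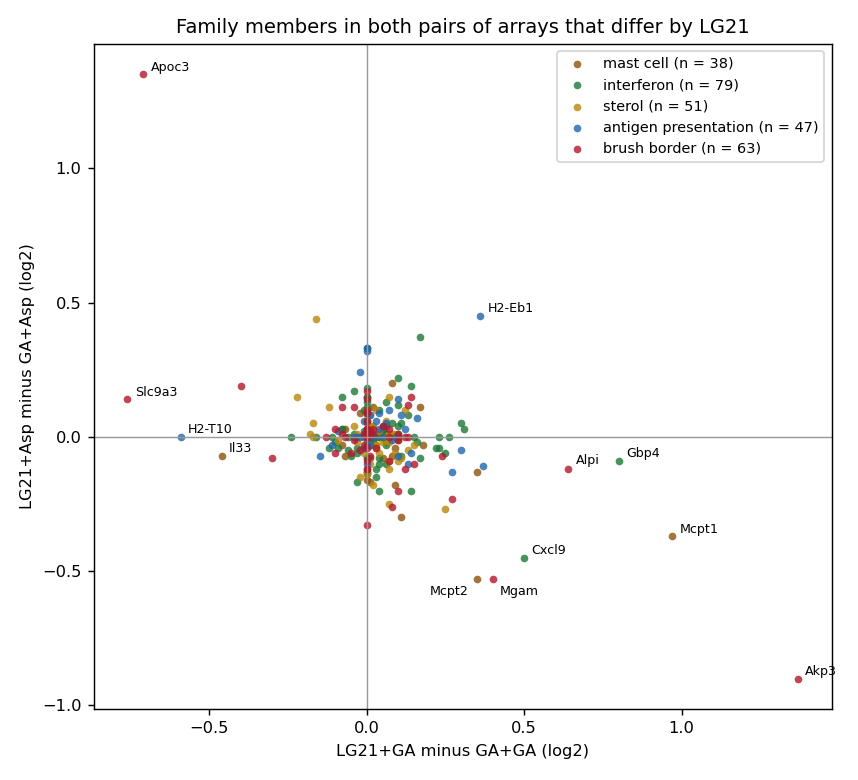
Difference with LG21 in the arrays without aspirin (LG21+GA minus GA+GA, log2, horizontal axis) against the difference in the arrays with aspirin (LG21+Asp minus GA+Asp, log2, vertical axis); each point is 1 member of the 5 families and the colour gives the family. Akp3 (1.37 and -0.90), Mcpt1 (0.97 and -0.37) and Cxcl9 (0.50 and -0.45) lie at the lower right and H2-Eb1 (0.36 and 0.45) at the upper right.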

How the data were processed

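Total RNA of gut from 5 groups was hybridised to Affymetrix Mouse Gene 1.0 ST arrays, with no replicate of any group. The deposited values are log2 RMA levels made by the authors with Expression Console, per the labels. The design text gives another program, the Exon Array Computational Tool. The log2 scale was read from the values (1.32 to 13.87). Neither a software version nor a genome build is given in those sources. The authors' normalization was kept.

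Of 35557 probe sets, 21789 named 1 gene symbol in the platform annotation and 1621 several. Where probe sets shared a gene (999 genes), that of the highest mean over 5 arrays was kept, which gave 19938 genes. RefSeq (GRCm38.p6) served for names (21698 probe sets matched by identifier, 91 not), gene order and promoters. Of 317 symbols listed for the families 278 were measured, and of 301 on other lists 276.

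The members and gene lists were chosen with earlier results of these data known. Differences of log2 values were counted above 0, below 0 and past 0.2 and 0.1. Genes named were the members at least 0.2 apart (up to 8 a family each way), a list of defining genes of each family, the 10 largest differences each way above the filter without predicted genes, receptors and small RNAs, and up to 4 genes of other lists. Other members were named to describe their roles, after their values were seen. Alternatives were no filter or one at the 75th percentile, the mean of probe sets, quantile normalization and cyclic loess (3 iterations, limma 3.58.1 in R 4.3.3), and the mean of the 4 other arrays as baseline. The counting, in Python 3.11.15 with pandas 2.3.3, was tested on simulated data. The number of arrays limits the precision.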

Additional observations from a re-analysis of the deposited data

Results flagged for a closer look

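Some results had opposite signs in the 2 pairs of arrays that differ by LG21, the pair without aspirin (LG21+GA minus GA+GA) and the pair with aspirin (LG21+Asp minus GA+Asp), and were at least 1.5-fold apart in each. With 1 array per group the difference between the pairs was not tested. Akp3, the intestinal phosphatase, differed by 1.37 without aspirin and by -0.90 with it. Apoc3, an apolipoprotein of liver and intestine, differed by -0.71 and 1.35.

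Searched were only the family members and the 10 largest differences each way above the filter. The other genes found there were liver genes among the 10 furthest below 0 without aspirin. Chil4, outside that search and not on the hepatocyte list, also met both conditions, with 0.76 without aspirin and -1.95 with it. Bhmt, of methionine metabolism, differed by -1.22 without aspirin and by 1.13 with it, and Cyp2f2, a cytochrome, by -1.02 and 0.73. The fibrinogen chain Fgg differed by -0.98 and 1.77, the antitrypsin gene Serpina1c by -0.92 and 4.20, and the haem carrier Hpx by -0.86 and 1.11. Cps1, of the urea cycle, differed by -0.86 and 1.80, and Rbp4, the retinol carrier, by -0.83 and 0.64. On the hepatocyte list 21 of 27 genes met both conditions, Apoh (-0.82 and 1.38) and Cyp2e1 (-0.67 and 1.78) among them. The share of all genes that met both was not counted. At the looser mark of 0.2, 2.16% of all genes were lower without aspirin and 4.24% higher with it. The median of the 27 hepatocyte genes was -0.67 and 1.38. The 3 probe sets of Bhmt gave from -1.22 to -0.02 in the pair without aspirin.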

How the results depend on the processing

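No paired analysis was possible because each group had 1 array, and for the same reason no replicate could be left out. The 100 genes at least 0.2 higher became 272 without a filter and 55 above the 75th percentile, and the 141 lower became 431, 48 and, against the mean of the 4 other arrays, 69. The share of mast cell members above 0, 60.5%, was 76.9% above the filter and 21.1% for at least 0.1. For interferon members 57.0% became 25.3% at 0.1, and for sterol members 66.7% became 11.8%. Antigen presentation, 51.1%, gave 48.9% after cyclic loess, with more members below 0 than above, and 21.3% at 0.1. Brush border, 41.3%, gave 37.0% above the filter and 39.7% after cyclic loess, with more below than above in both, 66.7% after quantile normalization, 55.6% against the 4 other arrays and 20.6% at 0.1. Against the 4 other arrays Apoe turned from -0.22 to 0.06, and Mcpt1 became 1.48, Mcpt2 0.84, Iigp1 0.57, Gbp4 0.46 and Akp3 1.05. The remaining 31 values of these 7 counts and shares stayed within 1.5 times the main count or within its 95% binomial interval, and 86 values of single genes kept their sign and stayed under 0.2 from the main value. Restricting families to members above the olfactory receptor level on at least 1 array was chosen after seeing the data. Scaling mainly resolved exact ties, since over all genes 38.8% lay above 0 and 29.8% below as deposited, 58.0% and 41.4% after quantile normalization, and 37.2% and 62.8% after cyclic loess, with median differences of 0.00, 0.003 and -0.002.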

Other observations

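A few genes outside the lists are given as values, chosen after their values were seen. Chil4, a chitinase-like protein of stomach and macrophages, stood at 7.01 in GA+GA, 7.77 in LG21+GA, 6.90 in GA+Asp, 5.65 in Tep+Asp and 4.95 in LG21+Asp. LG21+GA was the highest array, GA+GA and GA+Asp lay close together, and Tep+Asp and LG21+Asp were lower. Trim38, which acts in innate immune signalling, stood at 5.23, 6.42, 6.23, 6.41 and 5.84 in the same order, with GA+GA low and under the background mark. Glo1, the glyoxalase gene, stood at 10.19, 9.61, 10.14, 9.87 and 9.68, and its 2 probe sets gave -0.59 and -0.49 for LG21+GA minus GA+GA.

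Epithelial defence genes gave 8 above and 7 below 0 of 18, or 8 and 10 after cyclic loess. Duoxa2, the maturation factor of the oxidase DUOX2, stood at 8.03 in GA+GA, 8.28 in LG21+GA, 7.79 in GA+Asp, 8.06 in Tep+Asp and 7.76 in LG21+Asp, and Duox2 itself at 8.53, 8.72, 8.35, 8.58 and 8.35. LG21+GA was the high array for both. Inflammatory cytokines and receptors of microbes gave 9 above and 8 below of 21, or 9 and 12 after cyclic loess. Tnf differed by 0.03, Il1b by 0.00, Cxcl2 by -0.06 and Tlr2, a receptor of Gram-positive cell walls, by 0.00. Il1b and Cxcl2 lay under the background mark on both arrays. In squamous epithelium, the lining of the forestomach, 9 of 17 genes lay above 0 and 7 below, or 8 and 9 after cyclic loess, with the keratin genes Krt4 at -0.52 and Krt10 at 0.21.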
